A study of Mus musculus with 8 samples.

Results

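CD94, the NKG2 family and the Klre1 and Klri receptors are C-type lectin-like surface proteins of natural killer (NK) cells and of some innate lymphoid cells (ILCs). Their genes were taken by symbol from the deposited gene table: Klrd1, Klrc1, Klrc2, Klrc3, Klrk1, Klre1, Klri1 and Klri2, which are 8 of the 34745 genes listed. Bulk RNA had been sequenced from 3 lymphoid progenitor populations of the fetal liver of untreated wild-type B6 mice. The 3 CLP libraries (common lymphoid progenitors) came from cells sorted as Flt3+, the 3 ILCP libraries (ILC progenitors) from those marked PD-1+ and CD94-, and the 2 ILC1/3P libraries from CD94+ PD-1- cells, both within the Flt3- α4β7+ fraction. All 3 gates were lineage-negative, CD45+, CD127+ and CD25-, and CD94 itself was not part of the CLP gate. The stage of the embryos is not given in the sources used here, and the labels carry an age of 6 to 8 weeks that does not describe fetal tissue. Whether each library stands for its own animal or litter is not stated, so a p-value here weighs a difference against the spread among these libraries, and that spread may be technical.

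CD94, the product of Klrd1, pairs with an NKG2 chain on the cell surface, and the pair reads the nonclassical class I molecule Qa-1. NKG2A (Klrc1) carries an immunoreceptor tyrosine-based inhibitory motif (ITIM) that recruits phosphatases, whereas NKG2C (Klrc2) and NKG2E (Klrc3) lack it and signal through the adaptor DAP12. NKG2D, encoded by Klrk1, pairs with itself rather than with CD94, binds stress-induced ligands such as the Rae1 and Mult1 proteins, and signals through DAP10 and, in mouse, DAP12. Klre1 forms heterodimers with the ITIM-bearing Klri1 or with Klri2, which has no ITIM. All 8 genes lie in the NK gene complex of mouse chromosome 6.

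The coding starts show which chains carry the inhibitory motif, and are printed because the levels below are read by that division. Each line gives the first 90 coding bases of a GENCODE M21 transcript (mm10), in the direction of the message, and capitals mark the codons of an ITIM found by script.
Klrc1: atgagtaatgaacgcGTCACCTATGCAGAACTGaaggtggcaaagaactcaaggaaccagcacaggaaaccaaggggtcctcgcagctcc
Klrc2: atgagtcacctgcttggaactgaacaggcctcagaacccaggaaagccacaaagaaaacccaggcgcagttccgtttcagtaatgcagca
Klri1: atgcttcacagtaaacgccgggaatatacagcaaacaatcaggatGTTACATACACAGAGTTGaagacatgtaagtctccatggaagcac
Klri2: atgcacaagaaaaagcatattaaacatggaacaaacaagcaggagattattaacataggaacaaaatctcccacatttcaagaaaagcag
Counted from the A of the start codon, the motif filled bases 16 to 33 of Klrc1 and bases 46 to 63 of Klri1, and Klri1 had a second match at bases 139 to 156. No match was found in the first 210 coding bases of the other 6 genes.

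Sequence likeness limits how far the counts of the Klrc genes can be told apart. Over the aligned coding bases, Klrc2 and Klrc3 were 94.9% identical, Klrc1 and Klrc3 85.2%, Klrc1 and Klrc2 82.8%, and Klri1 and Klri2 78.1%. Of the distinct 50-base windows in the protein-coding transcripts of Klrc1, 36.5% also occurred in Klrc2, and 33.0% of those of Klrc3 occurred in Klrc2. With 100-base windows the shares fell to 14.5% and 18.1%. How the authors assigned reads that fit several genes is not given in the sources used here, so the split among Klrc1, Klrc2 and Klrc3 is uncertain. For Klri1, 5.83% of the 50-base windows and 0% of the 100-base windows occurred in Klri2, so its counts are uncertain too. By contrast, no 50-base window was shared between Klrd1, Klrk1 or Klre1 and any other of the 8 genes, and no exon of the 8 overlapped an exon of another gene in GENCODE M21.

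The libraries held 4991939 to 8082476 counts each. Of the genes behind the gates, Flt3 was at 0 counts in ILC1/3P, and Pdcd1 (PD-1) was at 0 in CLP, 44.6 to 107 CPM (counts scaled to a common library size with edgeR's TMM factors) in ILCP and 10.2 and 17.5 CPM in ILC1/3P. Il2ra (CD25), gated as absent in all 3, was at 0 in CLP, 6.25 to 9.25 CPM in ILCP, and 0.821 and 3.78 CPM in ILC1/3P. Il7r (CD127), gated as present in all 3, had 379 to 525, 461 to 500, and 215 and 214 CPM. The summed level of 12 NK and ILC1 markers was 90.0 to 151 CPM in CLP, 1433 to 1753 CPM in ILCP and 6343 to 11271 CPM in ILC1/3P, and Nkg7 alone was 76.4 to 134, 1361 to 1562, and 3344 and 7484 CPM. Of the 11 tested, 5 were called higher and 1 (Klrb1c, which encodes NK1.1) lower in ILCP against CLP, 9 higher and 0 lower in ILC1/3P against CLP, and 5 higher and 0 lower in ILC1/3P against ILCP. In the same order, 3.91%, 11.8% and 8.06% of all tested genes were called higher, and 2.87%, 11.7% and 8.25% lower. Eomes, Ncr1, Gzmb, Itga1 and Ifng were at 0 in CLP, Itga1 at 0 in ILCP and the perforin gene Prf1 at 0 in ILC1/3P. Of 8 T cell markers, the sum was 45.3 to 52.4 CPM in CLP, 1478 to 2302 CPM in ILCP and 2428 to 3747 CPM in ILC1/3P. Cd3g was most of it in ILCP and ILC1/3P, and Cd28 (24.1 to 41.1 CPM) was the largest part in CLP. Against CLP, 5 of the 8 were called higher in ILCP and 4 in ILC1/3P, with 0 lower. In ILC1/3P against ILCP, 0 were called higher and 1 (Cd8b1) lower. Cd4 was at 0 in both ILCP and ILC1/3P. Cd8a and Cd8b1 were at 0 in CLP, with 6.75 to 24.6 and 2.62 to 17.9 CPM in ILCP. Markers of other lineages were highest in CLP: 7 B lineage genes summed to 2481 to 3301 CPM there and to 129 to 191 CPM elsewhere, 6 myeloid genes to 625 to 867 and 5.66 to 52.9 CPM, and 5 dendritic genes to 572 to 932 and 14.1 to 40.6 CPM. The dendritic list includes Flt3, on which the populations were sorted, at 570, 400 and 407 CPM in CLP. The sum of that list is therefore not independent of the gate. Siglech, Irf8 and Itgax were also highest in CLP. Siglech had 62.6 to 73.7 CPM there and 0 elsewhere, and Irf8 had 97.9 to 295 CPM there and 0.141 to 27.4 CPM elsewhere. Xcr1 instead had group means of 1.33 (CLP), 13.4 (ILCP) and 13.9 CPM (ILC1/3P). The mast cell gene Cpa3 had 0 to 2.81 CPM in CLP, 480.0 to 626 CPM in ILCP, and 185 and 236 CPM in ILC1/3P, with Mcpt8, Fcer1a and Ms4a2 at 0 throughout. Erythroid, megakaryocyte and hepatocyte lists summed to at most 89.2 CPM in any library. The part of these cell types in the results below was not tested, and in bulk RNA more cells of a type and more RNA per cell cannot be told apart.

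ILC1/3P carried far more of these transcripts than either other population. Together the 8 genes took 0.388% and 0.435% of all counts in the ILC1/3P libraries, while the CLP libraries gave 0.00511% to 0.00805% and the ILCP libraries 0.0073% to 0.0131%. By edgeR's quasi-likelihood test over 13436 genes (Benjamini-Hochberg adjusted p under 0.05), 6 of the 8 were called higher in ILC1/3P than in CLP, where 11.8% of all tested genes were called higher, and 6 of 8 higher in ILC1/3P than in ILCP, where 8.06% were. Between ILCP and CLP 4 of 8 were called higher, with 3.91% of all tested genes called higher. Counting both directions, the calls over all tested genes came to 23.5% for ILC1/3P against CLP (11.7% lower), 16.3% for ILC1/3P against ILCP (8.25% lower) and 6.79% for ILCP against CLP (2.87% lower). None of the 8 was called lower in any comparison, 0 were lower at an unadjusted p under 0.05, and DESeq2 also called 0 lower. All libraries of ILC1/3P lay above all of CLP for 8 of 8 genes (23.3% of all tested genes) and above all of ILCP for 7 of 8 (20.2%), and ILCP lay above CLP for 4 of 8 (14.1%).

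Their median log2 fold change was 7.68 for ILC1/3P against CLP (7.38 with genes absent from CLP set at their lower bound), 5.81 for ILC1/3P against ILCP and 2.82 for ILCP against CLP (1.81 with bounds), beside medians over all tested genes of -0.25, -0.23 and 0.007. All 8 passed the filter on low counts, but Klrc2, Klrc3, Klre1 and Klri1 had at most 21 counts in any CLP or ILCP library and passed through ILC1/3P, so these counts and medians are descriptions. The counts and medians also include Klrd1, the gene of the CD94 gate, and its Klrc partners, so they are not independent of the sort. The scale of ILC1/3P also depends on normalisation: without TMM, by library size alone, the median over all tested genes moved by -0.68 against CLP and by -0.63 against ILCP on the log2 scale. The share of calls that were higher then went from 50.3% to 25.3% against CLP and from 49.4% to 18.2% against ILCP. Even so, 6 of the 8 receptor genes were called higher in both comparisons by library size alone.

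**Figure D1:**
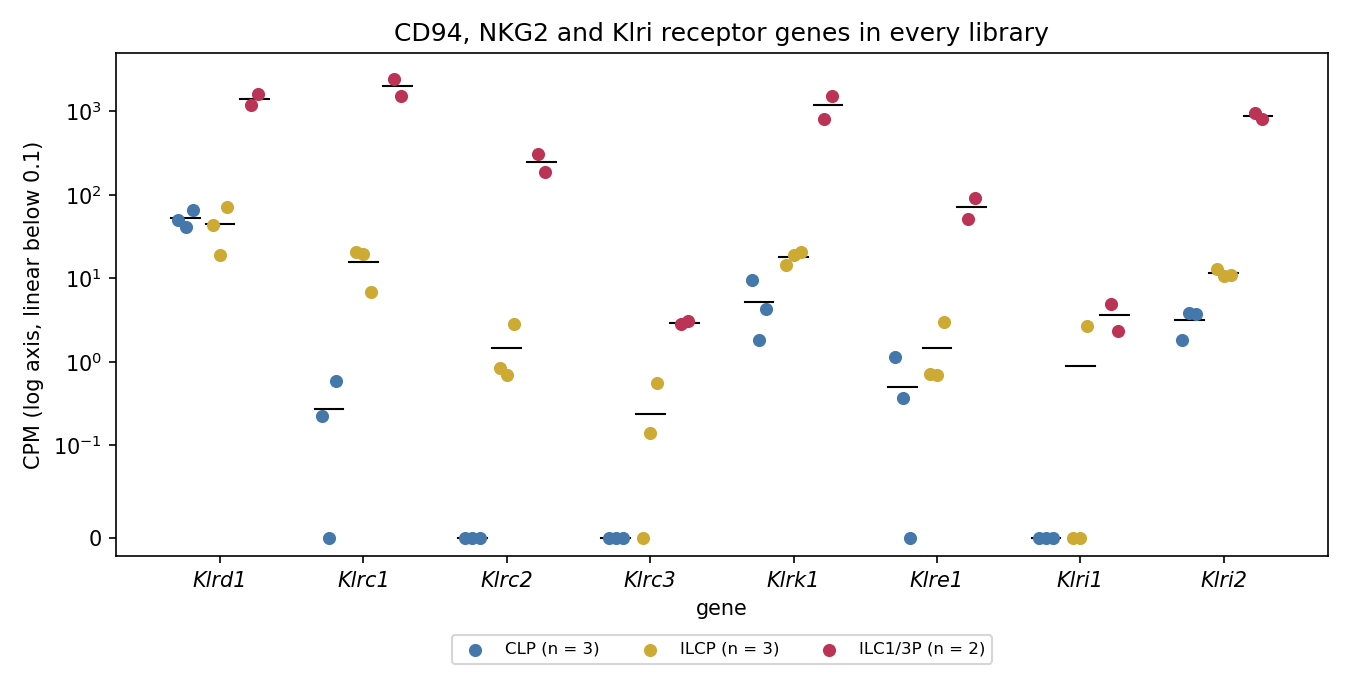
CPM of each of the 8 genes (horizontal axis) in every library, on a log axis that is linear below 0.1; points are libraries (3 of CLP, 3 of ILCP, 2 of ILC1/3P), and bars are group means. The ILC1/3P points lie above all others for each gene except Klri1, and Klrd1 is the gene with CLP and ILCP points at a similar height.

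Klrd1 (ENSMUSG00000030165, chromosome 6, 129591782 to 129598775 on mm10, plus strand) encodes CD94, which was gated as absent in ILCP and present in ILC1/3P. None of its differences between groups, including that of ILC1/3P from CLP, is therefore an independent finding. Nor fully are those of its NKG2A, NKG2C and NKG2E partners. Its level was 1183 and 1627 CPM in the ILC1/3P libraries, 43.3, 19.0 and 71.4 CPM in ILCP, and 50.3, 40.8 and 65.4 CPM in CLP. The CLP values lay inside the range of the ILCP values, although ILCP had been sorted as CD94-. ILCP differed from CLP by -0.23 ± 0.39 on the log2 scale (SE, edgeR adjusted p = 0.866, 95% interval -1.09 to 0.63). ILC1/3P stood 4.98 ± 0.47 above ILCP (adjusted p = 0.000164) and 4.75 ± 0.47 above CLP (adjusted p = 4.86e-05). Klrd1 messages in ILCP came to 3.26% of the ILC1/3P level from pooled counts, and those in CLP to 3.86%.

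Among the partners of CD94, the inhibitory chain gene Klrc1 was the most abundant in ILC1/3P. Klrc1 (ENSMUSG00000030167, chromosome 6, 129666015 to 129678973, minus strand) had 2458 and 1516 CPM in ILC1/3P, 20.9, 19.5 and 6.89 CPM in ILCP, and 0.226, 0 and 0.592 CPM in CLP, which is 2, 0 and 4 counts. The 3 groups did not overlap. The log2 fold change was 6.98 ± 0.53 against ILCP (adjusted p = 5.19e-05) and 12.68 ± 0.71 against CLP (adjusted p = 1.46e-06), and ILCP stood 5.70 ± 0.65 above CLP (adjusted p = 0.000187). CLP thus held CD94 transcripts with almost none of the NKG2A chain. In FPKM, a level per gene length computed by the authors, Klrc1 was 0 to 0.00955 of Klrd1 in the CLP libraries, 0.102 to 1.08 in ILCP, and 0.983 and 2.19 in ILC1/3P. With transcript lengths in place of the authors' (described below) the ratios were 0 to 0.00419 in CLP, 0.0447 to 0.473 in ILCP, and 0.432 and 0.963 in ILC1/3P.

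Klrc2 (ENSMUSG00000052736, chromosome 6, 129647496 to 129660689, minus strand), the activating NKG2C chain, had 309 and 186 CPM in ILC1/3P. In ILCP it had 0.852, 0.690 and 2.81 CPM, from 6, 5 and 20 counts, and no CLP library had a count, which allows up to 0.143 CPM over the group. It was 7.40 ± 0.63 higher in ILC1/3P than in ILCP on the log2 scale (adjusted p = 0.000236), and at least 1812-fold higher than in CLP (adjusted p = 1.9e-05). ILCP was at least 10.2-fold above CLP (adjusted p = 0.0126), a call that was lost without CLP replicate 1 (adjusted p = 0.0529), and with the ILC1/3P libraries left out of the fit Klrc2 did not pass the filter. Klrc3 (ENSMUSG00000033027, chromosome 6, 129639064 to 129643337, minus strand), the NKG2E chain, stayed low: 2.79 and 3.07 CPM in ILC1/3P (17 and 13 counts), 0, 0.138 and 0.562 CPM in ILCP, and no counts in CLP. Its ILC1/3P libraries lay above all others, but it was not called against ILCP (3.55 ± 2.25, adjusted p = 0.327) or CLP (at least 20.4-fold, adjusted p = 0.0765).

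Because reads may be shared, the 3 Klrc genes were also summed. The sum stood 7.00 ± 0.46 above ILCP in ILC1/3P (log2, adjusted p = 2.95e-05) and 12.85 ± 0.63 above CLP (adjusted p = 5.16e-07), and 5.85 ± 0.57 above CLP in ILCP (adjusted p = 6.72e-05). Klrc1 made up 88.7% and 88.9% of the Klrc counts in the ILC1/3P libraries and 96.1%, 95.9% and 67.1% in ILCP replicates 1, 2 and 3, as shares of counts not corrected for length. In ILCP replicate 3, Klrc1 was lowest of the group while Klrc2, Klrc3, Klrd1, Klrk1, Klre1 and Klri1 were highest.

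Klrk1 (ENSMUSG00000030149, chromosome 6, 129610323 to 129623864, minus strand), which encodes NKG2D, does not need CD94 as a partner, and its transcript followed the same order of groups as Klrc1. It had 807 and 1546 CPM in ILC1/3P, 14.3, 18.8 and 20.7 CPM in ILCP, and 9.62, 1.84 and 4.29 CPM in CLP, with no overlap between groups. ILC1/3P stood 6.03 ± 0.53 above ILCP (log2, adjusted p = 0.000109) and 7.76 ± 0.58 above CLP (adjusted p = 6.35e-06). The difference between ILCP and CLP, 1.72 ± 0.46, was close to the threshold (adjusted p = 0.0475). It was not called without CLP replicate 2 or 3 or without any 1 ILCP library (highest adjusted p = 0.178), with library size as the only scaling (adjusted p = 0.0812), with a replicate block (adjusted p = 0.105) or with the ILC1/3P libraries left out of the fit (adjusted p = 0.167).

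Klri2 (ENSMUSG00000043932, chromosome 6, 129729041 to 129740484, minus strand), is the Klri chain without an ITIM. It had 955 and 810 CPM in ILC1/3P, 12.8, 10.8 and 10.8 CPM in ILCP, and 1.81, 3.86 and 3.70 CPM in CLP, again with no overlap. Its difference between ILC1/3P and ILCP, 6.27 ± 0.33 on the log2 scale (adjusted p = 7.13e-06), had the smallest p of all 13436 genes tested, and its difference from CLP, 8.16 ± 0.37 (adjusted p = 4.24e-07), the second smallest. ILCP stood 1.90 ± 0.30 above CLP (adjusted p = 0.00225), which was not called with the ILC1/3P libraries left out of the fit (adjusted p = 0.141).

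The other Klri chain and their shared partner were scarcer. Klri1 (ENSMUSG00000067610, chromosome 6, 129697218 to 129717132, minus strand), the ITIM-bearing chain, had 4.93 and 2.36 CPM in ILC1/3P (30 and 10 counts), 0, 0 and 2.67 CPM in ILCP, and no counts in CLP. All 19 of its ILCP counts came from replicate 3, whose value lay between those of the ILC1/3P libraries. It was not called in any comparison (adjusted p = 0.623 against ILCP and 0.0975 against CLP for ILC1/3P, and 0.297 for ILCP against CLP), though it crossed the threshold for ILC1/3P against CLP with ILCP left out of the fit (adjusted p = 0.0499). Klre1 (ENSMUSG00000050241, chromosome 6, 129577905 to 129585827, plus strand), the partner of both Klri chains, had 50.6 and 90.9 CPM in ILC1/3P, 0.710, 0.690 and 2.95 CPM in ILCP, and 1.13, 0.367 and 0 CPM in CLP. ILC1/3P was higher than ILCP (5.59 ± 0.99 on the log2 scale, adjusted p = 0.00337) and than CLP (7.01 ± 1.07, adjusted p = 0.000721), while ILCP and CLP overlapped (1.42 ± 0.94, adjusted p = 0.479).

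**Figure D2:**
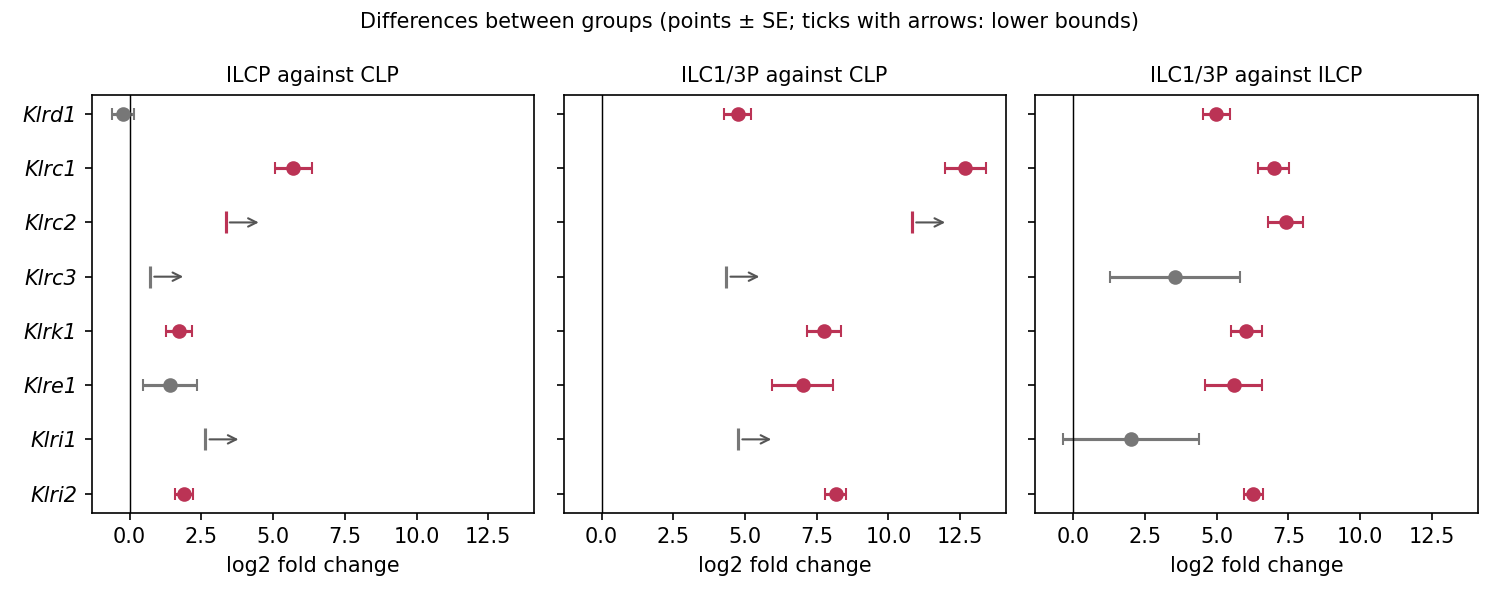
Log2 fold changes of the 8 genes in the 3 comparisons, as points with standard errors from edgeR, or, where CLP had no counts, as ticks with arrows at the lower bound; red marks genes called at an adjusted p under 0.05 and grey the rest. All 3 comparisons share libraries, and only Klrd1 lies below 0, between ILCP and CLP.

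Library by library, the ILC1/3P replicates differed in which receptors they favoured. In both CPM and FPKM, replicate 1 was higher for Klrc1, Klrc2, Klri1 and Klri2, and replicate 2 for Klrd1, Klrk1 and Klre1. Klrc3 was higher in replicate 2 by CPM and in replicate 1 by FPKM (1.86 and 1.82). With 2 libraries no test of that pattern was possible.

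Levels of different genes are set in order per length. By deposited FPKM the order in ILC1/3P was Klrc1 (544 ± 224, SD, n = 2), Klrd1 (356 ± 51.2), Klri2 (161 ± 31.7), Klrk1 (90.2 ± 33.3), Klrc2 (24.2 ± 10.4), Klre1 (11.7 ± 3.81), Klri1 (3.16 ± 1.79) and Klrc3 (1.84 ± 0.0271). Klrc1 and Klrd1 overlapped between libraries, and the other neighbours in that order were apart, Klri1 and Klrc3 only narrowly (lowest Klri1 value 1.89, highest Klrc3 value 1.86) and on 10 to 30 counts a library. In CLP, Klrd1 (21.3 ± 4.88 FPKM, n = 3) took 90.6% to 93.5% of the summed FPKM of the 8 genes, and Klri2 (0.892 ± 0.279 FPKM) and Klrk1 (0.677 ± 0.559 FPKM) came next and overlapped. In ILCP, Klrd1 (17.9 ± 10.6 FPKM, n = 3), Klrc1 (6.62 ± 3.31), Klri2 (3.25 ± 0.488) and Klrk1 (2.17 ± 0.337) led. Klrd1 overlapped Klrc1 there, and Klrc1 overlapped Klri2. In ILCP, Klrd1 took 35.3% to 67.4% of the sum, and in ILC1/3P 24.3% and 36.8%.

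That order depends on the length assigned to each gene. The deposited FPKM implied lengths of 9121 bases for Klrk1 and 7381 for Klrc2, against 1270 and 1149 bases for the transcript with the longest coding sequence in GENCODE M21. With those transcript lengths, an alternative chosen after seeing the data, the levels on the FPKM scale in ILC1/3P were 1079 ± 155 for Klrd1, 723 ± 297 for Klrc1, 648 ± 239 for Klrk1, 161 ± 31.7 for Klri2, 156 ± 66.7 for Klrc2, 38.3 ± 12.5 for Klre1, 3.16 ± 1.79 for Klri1 and 2.91 ± 0.0429 for Klrc3 (SD, n = 2). Klrk1 then stood above Klri2, while Klrc3 and Klri1 stayed last under both lengths. In both ILC1/3P libraries, under both lengths, Klrc1 (with an ITIM) exceeded Klrc2 (without), and Klri2 (without) exceeded Klri1 (with). In ILCP replicate 3 the Klri order was the other way, at 3.53 FPKM for Klri1 and 3.06 FPKM for Klri2.

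**Figure D3:**
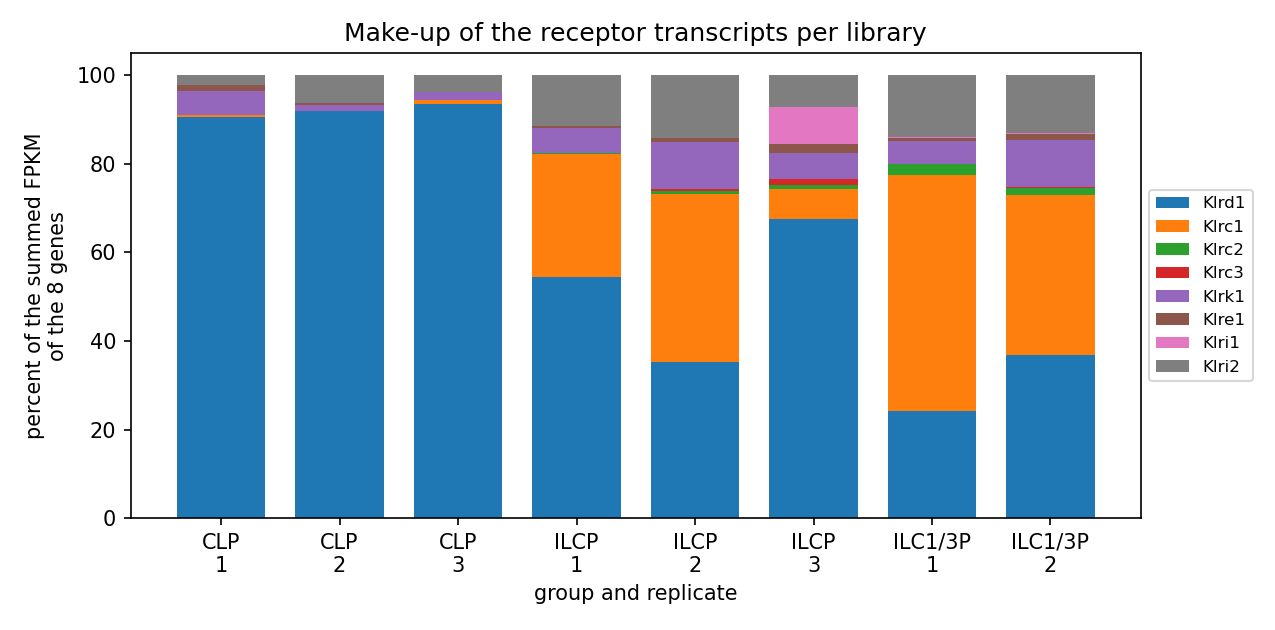
Share of each of the 8 genes in their summed deposited FPKM, as stacked bars in percent, for each library of CLP, ILCP and ILC1/3P. Klrd1 fills at least 90.6% of each CLP bar, while Klrc1 reaches 36.2% and 53.2% in ILC1/3P.

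Of the 4 adaptor genes of activating receptors, 2 were called higher in ILCP against CLP, and 3 in each of the comparisons of ILC1/3P. Over all tested genes the shares called higher were 3.91% in ILCP against CLP, and 11.8% against CLP and 8.06% against ILCP in ILC1/3P. Hcst (DAP10) had 8.60, 8.27 and 11.4 CPM in CLP, 43.5, 35.5 and 39.5 CPM in ILCP, and 96.3 and 173 CPM in ILC1/3P, with no overlap. It rose by 2.06 ± 0.34 on the log2 scale from CLP to ILCP (adjusted p = 0.00303) and stood 1.77 ± 0.36 higher in ILC1/3P than in ILCP (adjusted p = 0.00699), which was not called by library size alone (adjusted p = 0.0597). Tyrobp (DAP12) had 179, 266 and 353 CPM in CLP, 418, 514 and 373 CPM in ILCP, and 1508 and 2428 CPM in ILC1/3P. Tyrobp was thus detected in CLP, where Klrc2 was not, and which cells of the CLP libraries carried it was not tested. It was higher in ILC1/3P than in CLP (2.89 ± 0.32, adjusted p = 0.000112) and than in ILCP (2.18 ± 0.32, adjusted p = 0.00135), and not called between ILCP and CLP (0.71 ± 0.29, adjusted p = 0.186). Fcer1g, the common gamma adaptor of Fc receptors, rose from 153 ± 66.3 CPM in CLP to 700 ± 195 CPM in ILCP (SD, n = 3 each, adjusted p = 0.00166) and 4422 ± 831 CPM in ILC1/3P (n = 2, adjusted p = 1.06e-05 against CLP). Cd247, the zeta chain, was not called in any comparison, with group means of 2.63 (CLP), 36.2 (ILCP) and 12.2 CPM (ILC1/3P).

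Signalling molecules further downstream did not move as one. Of 17 kinase and scaffold genes, 3 were called higher and 2 lower in both ILCP and ILC1/3P against CLP, and 2 higher and 3 lower in ILC1/3P against ILCP, with medians of -0.15, -0.51 and -0.42 on the log2 scale. Over all tested genes, 3.91% were called higher and 2.87% lower in ILCP against CLP, and 11.8% and 11.7% in ILC1/3P against CLP. In ILC1/3P against ILCP the shares were 8.06% higher and 8.25% lower, and no difference of the list from these shares was tested. By library size alone the calls for ILC1/3P were 3 higher and 6 lower against CLP, and 0 higher and 5 lower against ILCP. The scaffold gene Lat rose by 2.98 ± 0.24 from CLP to ILCP (adjusted p = 1.69e-05), and Lcp2, which encodes the adaptor SLP-76, by 5.36 ± 0.59 (adjusted p = 0.000146). Each fell again in ILC1/3P relative to ILCP (Lat -0.99 ± 0.26, adjusted p = 0.0224, and Lcp2 -2.65 ± 0.60, adjusted p = 0.0119). Syk, a kinase that docks on DAP12, fell from 60.8 ± 17.6 CPM in CLP to 9.44 ± 3.18 CPM in ILCP (SD, n = 3 each, adjusted p = 0.00512) and to 3.76 ± 1.65 CPM in ILC1/3P (n = 2, adjusted p = 0.000809). Plcg2, a phospholipase, was lower in ILCP than in CLP (-1.93 ± 0.31, adjusted p = 0.00231) and higher in ILC1/3P than in ILCP (1.14 ± 0.33, adjusted p = 0.0371), the latter not called by library size alone (0.51, adjusted p = 0.302).

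None of 3 phosphatases that ITIMs recruit was called higher in any comparison by edgeR, and 0 were higher at an unadjusted p under 0.05. With 3.91% to 11.8% of all tested genes called higher, depending on the comparison, 0 of 3 is no result about the list. Ptpn6 (SHP-1) was 175 ± 40.1 CPM in CLP, 104 ± 17.2 CPM in ILCP (SD over 3 libraries) and 46.1 ± 27.5 CPM in ILC1/3P (2 libraries). It was lower in ILC1/3P than in CLP (-1.92 ± 0.40, adjusted p = 0.00498). An exon of Ptpn6 overlaps another gene, so its counts are uncertain. Inpp5d (SHIP-1) went from 118 ± 26.7 CPM in CLP to 31.3 ± 17.2 CPM in ILCP (adjusted p = 0.0265 by edgeR) and 29.5 ± 10.8 CPM in ILC1/3P (adjusted p = 0.0186). Ptpn11 (SHP-2) was not called in any comparison.

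Ligands of the receptors were measured in the same cells. H2-T23, which encodes Qa-1 and was named for that role after its values were seen, had 55.9 to 87.6 CPM in CLP, 60.9 to 70.9 CPM in ILCP, and 95.8 and 100.3 CPM in ILC1/3P, and was not called in any comparison. Its difference between ILC1/3P and ILCP, 0.57 ± 0.30 on the log2 scale (adjusted p = 0.232), was -0.07 by library size alone. Of 7 genes of Qa-1 and of class I presentation in general, 1 (H2-D1) was called higher in ILCP against CLP (3.91% of all tested genes). The same 3 were called higher in both comparisons of ILC1/3P (11.8% of all tested genes against CLP, 8.06% against ILCP). They were B2m, the class I light chain (3.36 ± 0.35 on the log2 scale against CLP, adjusted p = 7.77e-05), H2-K1 (3.17 ± 0.24, adjusted p = 6.34e-06) and H2-D1 (2.14 ± 0.23, adjusted p = 8.98e-05). H2-K1 and H2-D1 are close paralogs whose reads may be shared. By library size alone H2-D1 was not called against ILCP (adjusted p = 0.0786) or between ILCP and CLP (adjusted p = 0.051). Tap2, a peptide transporter chain, was not called (-1.62 ± 0.63 for ILC1/3P against CLP, adjusted p = 0.0868), but was by library size alone (adjusted p = 0.0293). NKG2D ligands were scarce, and 0 of the 2 tested were called by edgeR or reached an unadjusted p under 0.05. H60c had no counts, Raet1e and H60b did not pass the filter, and Raet1d, a Rae1 gene whose exons overlap Raet1e, had 30.6 and 30.2 CPM in ILC1/3P against 0 to 12.0 CPM elsewhere without being called (2.39 ± 1.32 against ILCP, adjusted p = 0.254). Ulbp1, which encodes Mult1, had 0 to 6.85 CPM over all libraries.

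The 8 genes sit within 1 stretch of the chromosome, among other lectin genes. Within 500 kb on either side the table listed 33 other genes, of which 10 were tested. Of these, 0 were called higher and 2 lower in ILCP against CLP, 2 higher and 1 lower in ILC1/3P against CLP, and 3 higher and 0 lower in ILC1/3P against ILCP, where the shares over all tested genes are those given above. Their median log2 fold changes were -1.60, -0.44 and 1.53, beside 0.007, -0.25 and -0.23 over all genes, and no difference from the receptor genes was tested. By library size alone Cd69 was not called against CLP (adjusted p = 0.424), nor Clec12a against ILCP (adjusted p = 0.159), in ILC1/3P. Klra5, a Ly49 receptor gene with close paralogs, had 144 and 46.7 CPM in ILC1/3P and no counts in the other 6 libraries. Cd69, an activation marker, had 1240 to 1973 CPM in CLP, 282 to 502 CPM in ILCP, and 3438 and 3130 CPM in ILC1/3P. Clec12a, an inhibitory lectin gene, was highest in CLP (342 to 559 CPM) and lower in ILCP (-4.74 ± 0.51 on the log2 scale, adjusted p = 0.000131) and ILC1/3P (-3.01 ± 0.55, adjusted p = 0.00234). RP23-145F22.9, a short unnamed gene next to Klri1, had counts in the same 3 libraries as Klri1: ILCP replicate 3 (2.39 CPM) and ILC1/3P replicates 1 and 2 (5.59 and 1.18 CPM). It was chosen after its values were seen.

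**Figure D4:**
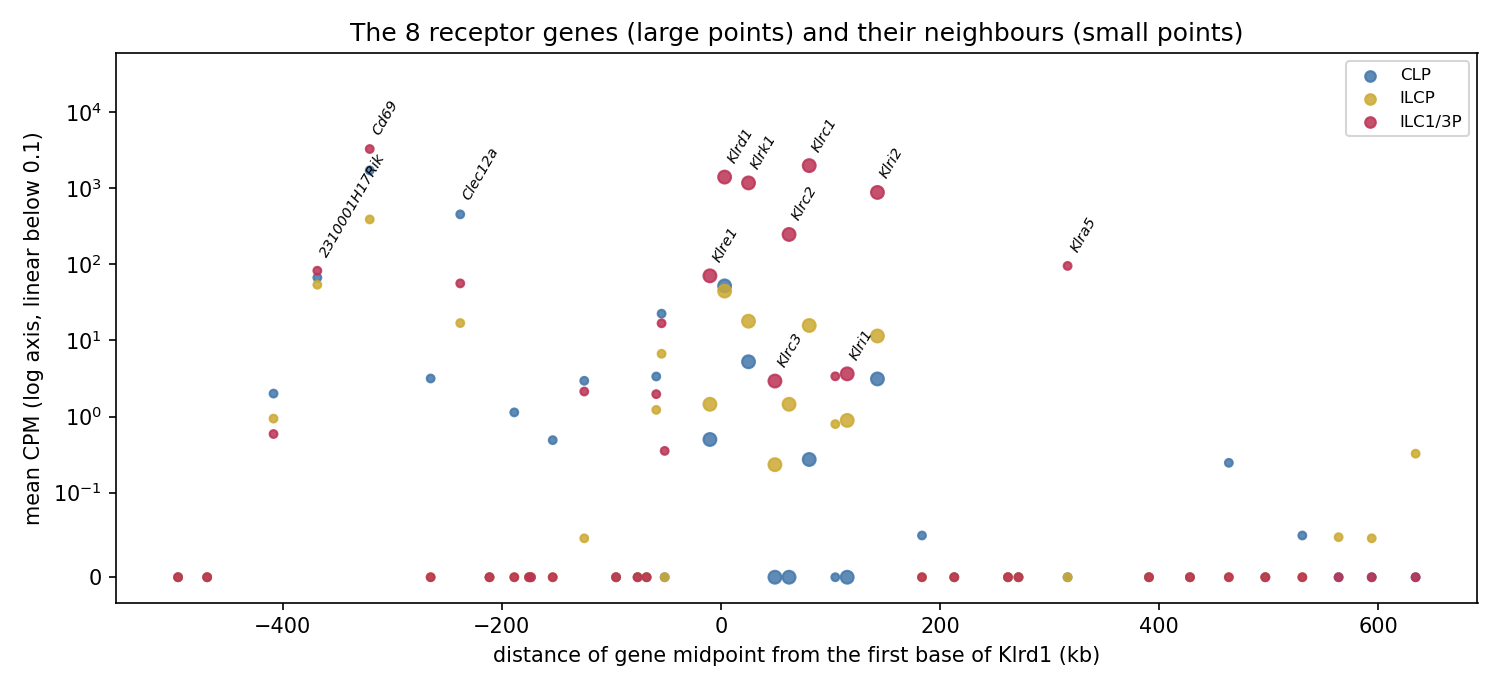
Mean CPM of the 8 receptor genes (large points) and 33 neighbours (small points) by distance of the gene's midpoint in kb from the first base of Klrd1, on a log axis that is linear below 0.1, for CLP, ILCP and ILC1/3P. The named high points among the neighbours are Cd69, Clec12a, Klra5 and 2310001H17Rik, and most other neighbours lie at or near 0.

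Promoter sequences were read because 6 of the 8 genes were called higher in ILC1/3P. RefSeq (GRCm38.p6) promoters were found for 6 of the 8 genes. Printed are the 250 bases before the start of Klrc1 (chr6:129678974-129679223, minus strand) and Klrk1 (chr6:129623865-129624114, minus strand), a CD94 partner and a receptor that does not use CD94; capitals mark the RUNX motif TGTGGT or its reverse complement ACCACA.
Klrc1: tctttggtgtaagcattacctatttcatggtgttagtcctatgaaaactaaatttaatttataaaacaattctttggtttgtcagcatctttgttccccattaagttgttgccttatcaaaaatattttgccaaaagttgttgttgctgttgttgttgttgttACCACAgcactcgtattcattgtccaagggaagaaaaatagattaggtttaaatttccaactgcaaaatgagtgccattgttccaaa
Klrk1: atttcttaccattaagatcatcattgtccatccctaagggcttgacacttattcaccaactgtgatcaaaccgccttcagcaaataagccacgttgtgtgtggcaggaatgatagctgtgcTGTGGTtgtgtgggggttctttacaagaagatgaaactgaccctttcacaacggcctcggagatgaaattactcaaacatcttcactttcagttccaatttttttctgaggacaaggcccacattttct
The RUNX letters occurred in 14.05% of all 32851 RefSeq promoter windows of 250 bases, and in 5 of the 6 genes here: Klrc1, Klrc2, Klrc3, Klrk1 and, in 1 of its 2 windows, Klre1. Both Klre1 windows lie within exons of GENCODE M21, and part of each Klrc2 and Klrc3 window does. Outside exons the letters occurred for 3 genes, Klrc1, Klrc3 and Klrk1, and not in the 117 and 157 such bases of the Klrc2 windows. The Klrc2 and Klrc3 windows are 98.8% identical and so count as about 1, and Klri1 had no match. A T-box motif (AGGTGT), an ETS motif (CCGGAA) and a GATA motif (AGATAA), each searched on both strands, occurred in none of the 6, and in 11.8%, 12.0% and 9.99% of all windows. Each was searched as 1 fixed string, and other forms of these motifs were not searched, so sites for these factors may still be present. The motifs were chosen with the sequences in view, and the matches describe letters only.

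Genes with the most similar profiles were sought by Pearson correlation of log2 CPM over the 8 libraries, among 6884 other genes. The libraries are shared and fall into 3 groups, so the values are descriptions. For Klrd1 they were Hist1h2ak (r = 0.994), the cyclin gene Ccnd2 (r = 0.988) and Gimap7 (r = 0.987). For Klrc1 they included Ccdc124 (r = 0.988) and Hsd11b1 (r = 0.985), a glucocorticoid-activating enzyme gene. For Klrk1 they were Pop5 (r = 0.987), Oip5 (r = 0.983) and Ykt6 (r = 0.982), and for Klre1 they were Zc3h13 (r = 0.988), the topoisomerase gene Top2a (r = 0.980) and Tubb4b (r = 0.978). Among the 8 receptor genes themselves, r ran from 0.761 (Klrc1 with Klri1) to 0.988 (Klrc2 with Klri2), and Klrd1 reached at most 0.926 with any other.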

How the data were processed

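The 8 bulk RNA-seq libraries were grouped and numbered by sample title. Per the labels' protocols, a SMARTer Ultra Low kit was used for cDNA, followed by PCR. The authors deposited 1 table with whole-number counts per gene and FPKM. Per the submitters' processing notes the build was mm10; for aligner, counter, annotation and strand, "not given in the sources used here" applies. In each library the deposited FPKM equalled the count per total count and 1 fixed length per gene. No molecular identifiers are described, so floors cover counting error only.

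The main test was edgeR's (4.0.16, under R 4.3.3): filterByExpr (13436 genes left), TMM scaling, and a robust quasi-likelihood model with 1 mean per group over all 8 libraries. Tests were two-sided with Benjamini-Hochberg adjustment over all genes tested. CPM are counts per TMM-adjusted library size. Standard errors and 95% intervals were derived from the F statistic. Where CLP had no counts, a fold is a lower bound from pooled counts against a floor of 3 counts over the group. The programs were tested on simulated data. Alternatives were DESeq2 1.42.0, other scalings, no filter, 2-group fits, a replicate block, leaving out each library, and summed paralogs. Named genes are the 8 receptors, up to 4 of each pathway list and 6 neighbours by smallest p, and 3 genes most correlated with each of Klrd1, Klrc1, Klrk1 and Klre1, with at least 20 CPM in the highest group. Not every gene the rule takes is described, and 1 is not reported here. Members and lists were chosen with earlier results of these data known. Raet1a, Raet1b, Raet1c and H60a were not matched by symbol. Besides those said above to overlap another gene's exons, Cd247, Lat, Lcp2, Tap2, Ccnd2, Gimap7, Hist1h2ak, Oip5, Top2a, Tubb4b, Eomes, Itga1, Ifng, Klrb1c and 2310001H17Rik do too in GENCODE M21, and are uncertain because the use of strand is not known. Coding sequences were aligned with Biopython 1.88.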

Additional observations from a re-analysis of the deposited data

How the results depend on the processing

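Receptor genes called higher in ILC1/3P numbered 6 against CLP and 6 against ILCP. These counts were the same with RLE size factors, library size only, no filter on low counts, a replicate block and DESeq2. They also held when any 1 CLP or ILCP library was left out (range 6 to 6). Leaving out an ILC1/3P library left 1 in that group, so the spread came from CLP and ILCP alone. The same 6 genes then stood at least 4.50 higher on the log2 scale in both comparisons. The fit of only the groups compared gave counts of 7 and 6. Between ILCP and CLP the count of 4 fell to 1 (Klrc1) when only those groups were fitted, where Klrc2 no longer passed the filter, was 3 by library size only and with a replicate block, and ranged from 3 to 4 without any 1 library. No receptor gene was called lower in any of these fits. The Klrd1 difference between ILCP and CLP, -0.23, ran from -0.74 (without ILCP replicate 3) to 0.12 (without ILCP replicate 2) when any 1 library was left out, never called. Deviations from the group means correlated at -0.033 to 0.087 for same-numbered libraries of different groups, and at -0.093 to 0.033 for differently numbered ones. This check cannot decide whether the replicate numbers pair the libraries, because the deviations of the 2 ILC1/3P libraries mirror each other. With a replicate block Klrk1 lost its call between ILCP and CLP (adjusted p = 0.105), and no other receptor gene changed its call. Over all genes, 912, 3163 and 2192 were called for ILCP against CLP, ILC1/3P against CLP and ILC1/3P against ILCP. DESeq2 called 1610 for the first. Without any 1 library the counts ran from 587 to 1114, 2284 to 3197 and 1333 to 2161. Of the 336 single-gene values recomputed under these settings, 323 kept direction and side of the threshold, 1 (Klri1 in ILCP against CLP without ILCP replicate 3) was 0 because no counts were left, 10 lost a call, 1 gained one and 1 turned. The genes most similar to Klrc1, Klrk1 and Klre1 changed with Spearman's correlation, which kept 1, 0 and 1 of each 3. Klrc3 and Klri1, with at most 30 counts in any library, are limited by depth.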
